A study of Mus musculus with 12 samples.

Results

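The nuclear genome encodes most subunits of respiratory complex I, and 35 genes of that group are described here in hearts of PTCD1 knockout and wild-type mice. They were taken by symbol from a list of Nduf genes: all 35 were found among 51911 annotated features, of which 51875 were nuclear. By the place of their protein in the enzyme, 10 belong to the N module, 5 to the Q module, 9 to the proximal membrane arm and 11 to the distal membrane arm, and 6 of the 35 are core subunits that carry the redox chemistry.

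Complex I (NADH:ubiquinone oxidoreductase) is the entry point of electrons from NADH into the respiratory chain. Its N module oxidises NADH, its Q module passes the electrons on to ubiquinone, and its membrane arm, whose proton-pumping core is encoded by mitochondrial DNA, is surrounded by nuclear-encoded accessory subunits. Heart muscle is among the tissues richest in this enzyme, and each complex needs the products of both genomes.

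Total heart RNA was depleted of cytoplasmic ribosomal RNA and sequenced in 12 libraries, in 4 groups of 3: PTCD1 knockout (KO) untreated, wild type (WT) untreated, KO after CMC and WT after CMC. PTCD1 is a mitochondrial RNA-binding protein with pentatricopeptide repeats, and CMC is a carbodiimide that was applied to the RNA, where it can stay attached to pseudouridine and hinder reverse transcription. The comparisons ask how RNA levels in the heart differ when PTCD1 is lost. How the allele was made, the cells in which it is deleted, and the strain, age and sex of the mice were not stated in the labels used here, nor is it said whether replicates are separate animals, so each p-value measures the spread between these samples only.

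Libraries held 10389398 to 12462093 counts, of which 2683284 to 3187748 fell in nuclear genes. Ptcd1 itself had 28, 17 and 19 counts in untreated KO libraries and 78, 71 and 74 in untreated WT libraries, and its log2 fold change was -1.94 (SE 0.19, edgeR). Untreated replicates differed little beyond counting error, with a chi-square per degree of freedom of 1.13 to 1.24. The third WT library after CMC stood apart: its chi-square per degree of freedom was 2.24 and 2.65 against the other WT libraries after CMC, which gave 1.43 between themselves. Values after CMC that shifted by much without it are given both ways.

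Nearly the whole set of nuclear complex I genes was lower in untreated KO hearts. Of the 35 genes, 32 fell, 0 rose and 3 did not pass (quasi-likelihood test of edgeR, adjusted p under 0.05 by Benjamini-Hochberg over 12195 nuclear genes), where 28.7% of all nuclear genes tested fell and 29.1% rose. None of the 35 was higher at an unadjusted p under 0.05 or by DESeq2 either. The median log2 fold change of the 35 was -0.48, a 1.39-fold lower level, against -0.00 for all nuclear genes tested. Summed over the 35 genes, transcripts made up 6161 ± 54.8 counts per 1000000 nuclear counts (CPM, SD, n = 3) in KO and 8839 ± 119 in WT hearts, a ratio of 0.697. Every KO library lay below every WT library for 31 genes, and 30.5% of all nuclear genes tested were placed that way. Without the TMM factor, the median of all genes moved by 0.12 and 22.6% of them fell while 36.1% rose, and 29 of the 35 fell. In bulk RNA, fewer cells of a type and less RNA per cell cannot be told apart.

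Cardiomyocyte markers moved with these genes. Of 9 such markers 8 fell and 1, Actn2, rose, with a median log2 fold change of -0.995. Their summed level ran from 38834 to 39040 CPM in KO and from 76609 to 79355 CPM in WT libraries, a ratio of 0.50, and none was at 0. For other cell types the ratio of the summed level, KO over WT, was 0.567 for 4 adipocyte, 0.772 for 5 blood cell, 0.787 for 5 mural cell, 0.930 for 6 endothelial, 0.986 for 7 fibroblast and 1.17 for 7 macrophage markers. These sums hold opposite changes: 4 endothelial markers fell and 1 rose, and of 6 fibroblast markers tested 2 fell and 3 rose. Among all nuclear genes tested 28.7% fell and 29.1% rose. The blood cell markers summed to 481, 505 and 673 CPM in the WT libraries. The adipocyte markers summed to 24.5 CPM in KO and 43.2 CPM in WT libraries on average. The part of cell composition in the complex I result was not tested.

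**Figure D1:**
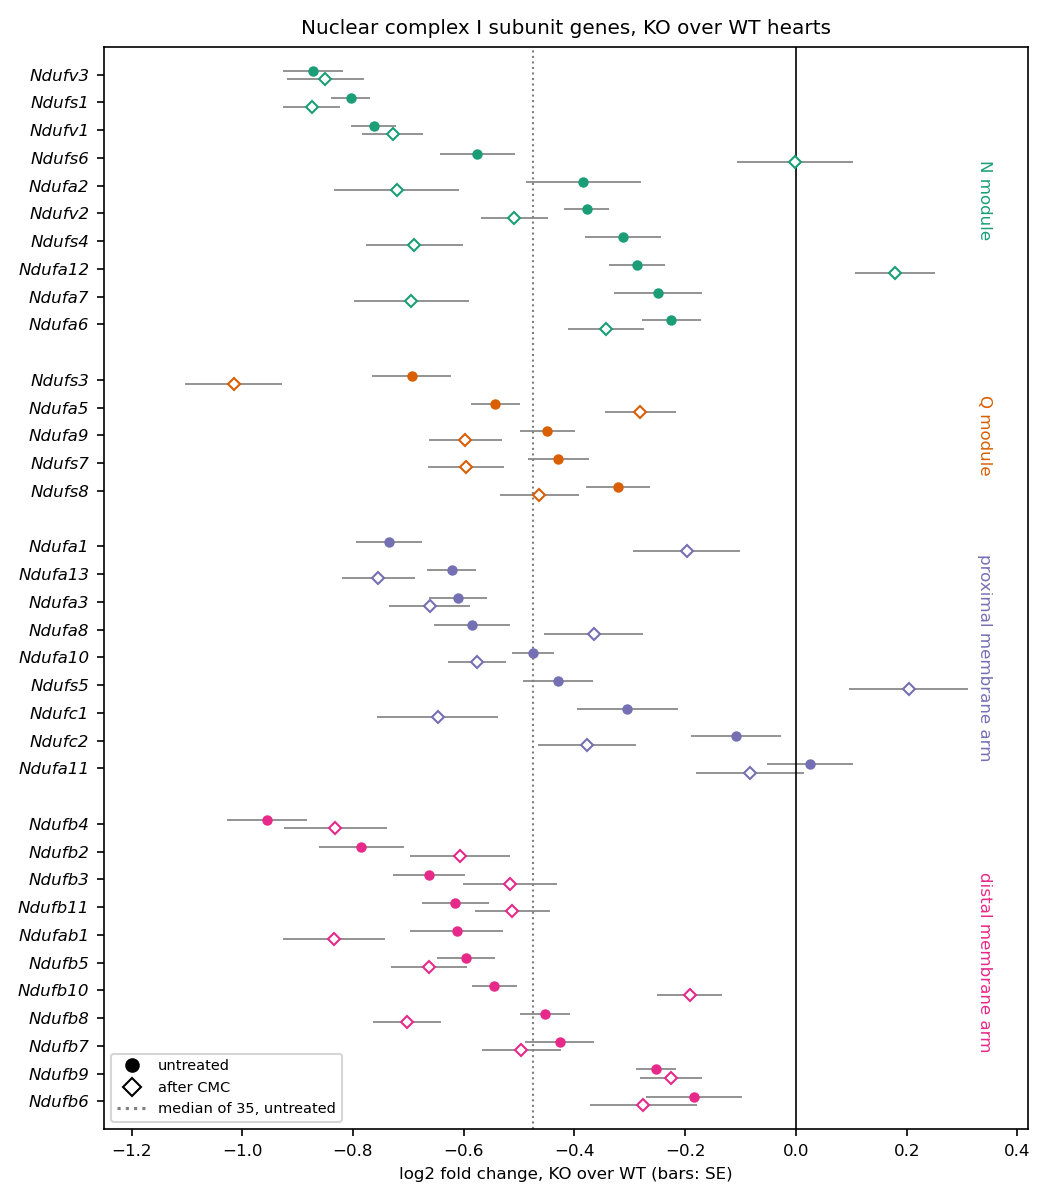
Log2 fold change of each of the 35 genes, KO over WT, untreated (filled circles) and after CMC (open diamonds), with SE bars, grouped by module; the dotted line is the untreated median of -0.48. Nearly all untreated points lie left of 0, and Ndufa11 at 0.02 is the one to its right.

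The authors' deposited table for the untreated hearts gave a like picture for these genes. In the authors' deposited table, 29 of the 35 had a log2 fold change below 0 with an adjusted p under 0.05 and 0 had one above, with a median of -0.46. Values in the authors' deposited table and those computed here differed by at most 0.02.

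All 10 genes of the N module fell in untreated KO hearts, with a median log2 fold change of -0.38. The deepest change was that of Ndufv3 (ENSMUSG00000024038.16, mm10 chromosome 17, 31520115 to 31531326, plus strand), a small accessory partner of the flavoprotein. It stood at 151, 142 and 141 CPM in KO libraries, against 257, 268 and 273 CPM in WT libraries, and was 1.83-fold lower (log2 fold change -0.87, SE 0.05, edgeR adjusted p = 7.6e-40). The groups lay far apart relative to the spread within either.

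Ndufs1 (ENSMUSG00000025968.16, mm10 chromosome 1, 63143596 to 63176833, minus strand), the largest core subunit and a carrier of iron-sulfur clusters, had 464, 474 and 489 CPM in KO and 856, 825 and 817 CPM in WT libraries, a log2 fold change of -0.80 (SE 0.04). Its exons overlap those of Eef1b2 on the opposite strand. Ndufv1, which binds NADH and flavin mononucleotide, had 317, 333 and 318 CPM in KO and 557, 520 and 568 CPM in WT libraries (log2 fold change -0.76, SE 0.04). These 2 core subunits and Ndufv3 formed the upper end of the module, with no overlap between genotypes.

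Ndufv2, the remaining core subunit of the N module, fell less: 369, 352 and 352 CPM in KO libraries stood against 472, 465 and 460 CPM in WT libraries (log2 fold change -0.38, SE 0.04). The smallest change belonged to Ndufa6, an accessory subunit of the LYR family, with 179, 195 and 188 CPM in KO and 223, 211 and 226 CPM in WT libraries (log2 fold change -0.23, SE 0.05, edgeR adjusted p = 9.51e-05). Its groups were still separate. For Ndufa2 and Ndufa7, accessory subunits at 33.4 to 95.6 CPM, the genotypes overlapped although both passed the test.

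In the Q module all 5 genes fell, and their median log2 fold change was -0.45. Ndufs3, a core subunit of the hydrophilic arm, had 75.1, 80.9 and 78.8 CPM in KO and 126, 123 and 131 CPM in WT libraries, 1.62-fold lower (log2 fold change -0.69, SE 0.07, edgeR adjusted p = 3.28e-18). Ndufs7, which holds the last iron-sulfur cluster before ubiquinone, had 158, 165 and 156 CPM in KO libraries, against 220, 209 and 217 CPM in WT libraries (log2 fold change -0.43, SE 0.06). Both genes separated the genotypes fully.

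Ndufs8, a core subunit with iron-sulfur clusters of its own, changed least in the Q module, with 155, 142 and 165 CPM in KO and 193, 187 and 199 CPM in WT libraries (log2 fold change -0.32, SE 0.06). The accessory subunit Ndufa5 had 267, 260 and 259 CPM in KO and 394, 381 and 372 CPM in WT libraries (log2 fold change -0.54, SE 0.04). Ndufa9, an accessory subunit that binds NADPH and sits where both arms meet, had 191, 207 and 201 CPM in KO and 281, 267 and 271 CPM in WT libraries (log2 fold change -0.45, SE 0.05). All 6 core subunits fell, with a median of -0.56, against -0.48 for the 29 accessory subunits of all modules.

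In the proximal membrane arm 7 of 9 genes fell and 2 did not pass, with a median log2 fold change of -0.48. Ndufa1, an X-linked single-pass membrane subunit, had 124, 127 and 114 CPM in KO and 213, 198 and 200 CPM in WT libraries and was 1.66-fold lower (log2 fold change -0.73, SE 0.06, edgeR adjusted p = 8.31e-27). Ndufa13, also known as GRIM-19, had 256, 262 and 277 CPM in KO and 415, 393 and 417 CPM in WT libraries (log2 fold change -0.62, SE 0.04). The small membrane subunit Ndufa3 was close to it, with 174, 159 and 171 CPM in KO and 253, 261 and 257 CPM in WT libraries (log2 fold change -0.61, SE 0.05).

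At the other end of this arm stood Ndufa11 (ENSMUSG00000002379.6, mm10 chromosome 17, 56717762 to 56724248, plus strand), a subunit at the contact with complex III in respiratory supercomplexes. It had 80.3, 88.6 and 81.1 CPM in KO libraries, against 82.2, 77.6 and 86.3 CPM in WT libraries, and its log2 fold change was 0.02 (SE 0.08, edgeR adjusted p = 0.806). The genotypes lay within each other's range.

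Ndufc2, a small membrane subunit, had 84.0, 69.3 and 69.0 CPM in KO and 79.5, 83.2 and 78.0 CPM in WT libraries (log2 fold change -0.11, SE 0.08, edgeR adjusted p = 0.252), and its groups overlapped because of the first KO library. Its neighbour in the enzyme, Ndufc1, passed with a smaller change than most, at 56.9, 50.4 and 52.4 CPM in KO and 67.3, 60.3 and 70.3 CPM in WT libraries (log2 fold change -0.30, SE 0.09, edgeR adjusted p = 0.00224). Ndufs5, a cysteine-rich subunit on the intermembrane-space side, had 124, 116 and 115 CPM in KO and 155, 157 and 167 CPM in WT libraries (log2 fold change -0.43, SE 0.06).

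The distal membrane arm held the deepest change of all 35 genes, and 10 of its 11 genes fell, at a median of -0.60 on the log2 scale. Ndufb4 (ENSMUSG00000022820.3, mm10 chromosome 16, 37647170 to 37654453, minus strand), an accessory subunit of the membrane arm, had 63.7, 73.8 and 76.6 CPM in KO libraries, against 135, 144 and 138 CPM in WT libraries. It was 1.94-fold lower (log2 fold change -0.96, SE 0.07, edgeR adjusted p = 9.41e-30), and the highest KO library stood far below the lowest WT library.

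The next 2 in this arm were Ndufb2 and Ndufb3, both small membrane subunits. Ndufb2 had 64.0, 71.6 and 57.8 CPM in KO and 114, 106 and 114 CPM in WT libraries (log2 fold change -0.78, SE 0.08), though its exons overlap those of Braf on the opposite strand. Ndufb3 had 104, 102 and 94.1 CPM in KO and 158, 161 and 158 CPM in WT libraries (log2 fold change -0.66, SE 0.07). Ndufb10, a cysteine-rich subunit of the intermembrane-space face, had 326, 353 and 341 CPM in KO libraries, against 491, 489 and 510 CPM in WT libraries (log2 fold change -0.55, SE 0.04).

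Ndufb9, a LYR protein, showed the smallest change that passed in the distal arm, with 530, 525 and 520 CPM in KO and 620, 613 and 648 CPM in WT libraries (log2 fold change -0.25, SE 0.04, edgeR adjusted p = 1.81e-10). Ndufb6 did not pass: it had 63.4, 61.0 and 61.3 CPM in KO and 65.2, 72.6 and 73.8 CPM in WT libraries (log2 fold change -0.18, SE 0.09, edgeR adjusted p = 0.0567). Its groups were separate all the same, by a small gap.

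**Figure D2:**
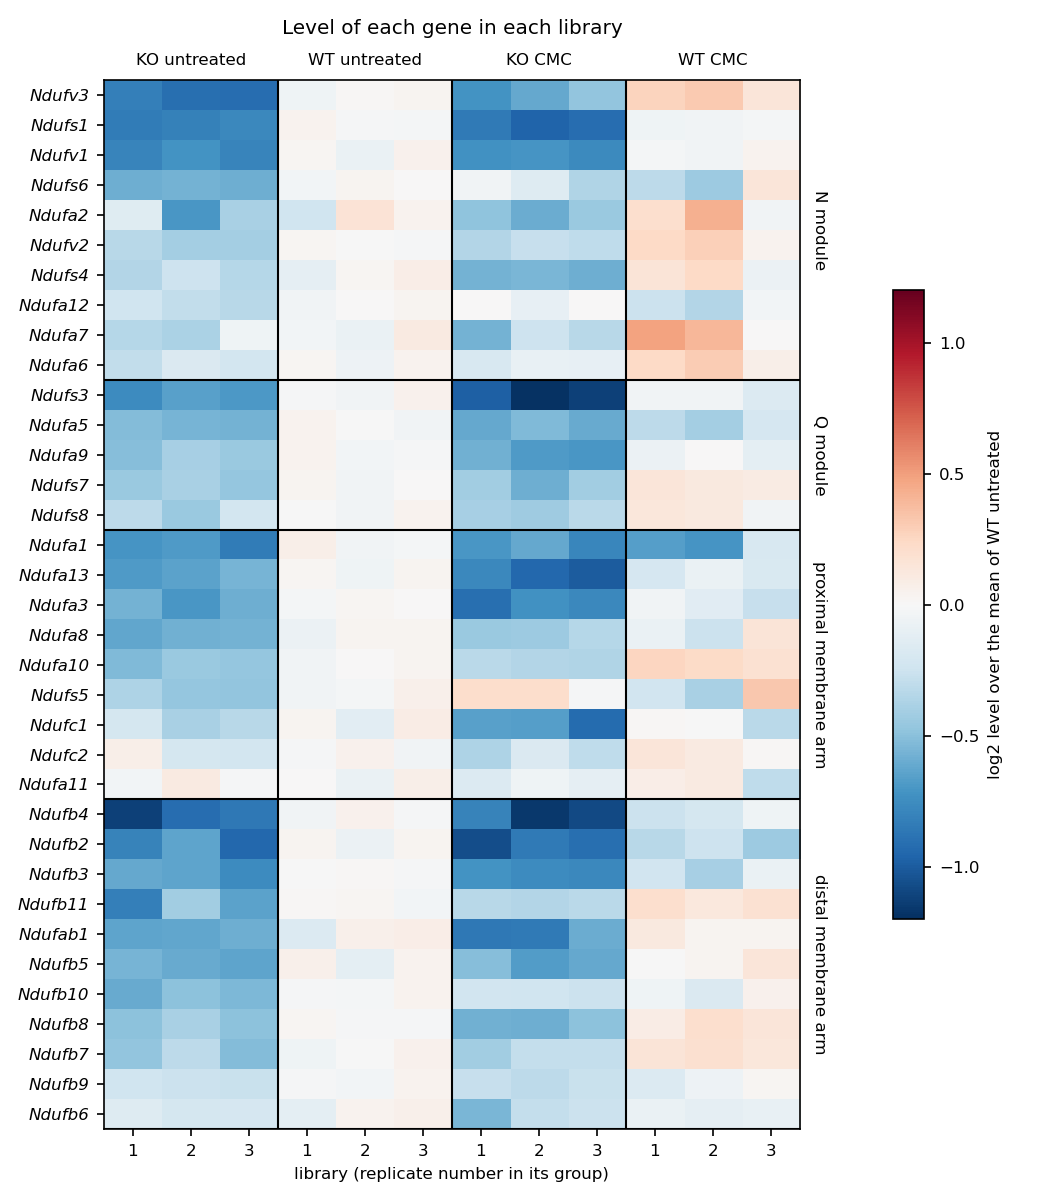
Log2 level of each gene in each library over its mean in untreated WT hearts, with libraries in columns by group and genes in rows by module; blue is lower and red higher. The 3 untreated KO columns are blue for nearly every gene, while Ndufa11 and Ndufc2 stay pale, and the third WT library after CMC differs in shade from the other WT libraries after CMC.

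Levels differed far more between the genes than between genotypes. Per kilobase of exon, the 35 genes ran from 8.20 to 806 CPM in KO hearts (median 98.3) and from 12.6 to 963 CPM in WT hearts (median 130). On that scale Ndufb9 was the highest and Ndufab1, the mitochondrial acyl carrier protein that also serves as a subunit, the lowest in both genotypes. The rank of Ndufab1 rests on the annotated exon length. Its untreated libraries held 1282 counts in all, more than those of Ndufa2 (858) or Ndufb6 (1196). Across the 35 genes, levels per kilobase in KO and in WT had a Pearson r of 0.99, and the untreated fold change had an r of -0.02 with the WT level per kilobase and of -0.27 with exon length, as descriptions over genes that share the same libraries. The genes lie on 15 chromosomes, and exons of 15 of them overlap another annotated gene, so the values of these rest on how shared reads were counted.

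Because the genes moved together, their promoters were searched for the letters of 4 factors or families known to bind respiratory genes: NRF1 (GCGCANGCG), ETS factors such as GABP (CCGGAAG), the oestrogen-related receptors ERR (AAGGTCA) and YY1 (AANATGGCG), on both strands and with overlaps allowed. RefSeq windows on GRCm38.p6, from 250 bases before to 50 bases after the start, were matched by symbol for 32 of the 35 genes. Windows of Ndufa2, Ndufb9 and Ndufs1 were not used here. The windows below show 1 match for the gene that changed most (Ndufb4, with NRF1 and ERR letters), for members with ERR, ETS and YY1 letters that fell, and for Ndufa11, which did not pass although it holds NRF1 letters. Each runs 5′ to 3′ on the gene's strand with the matched letters in capitals.
Ndufb4, NRF1, chr16:37654371-37654400, minus strand: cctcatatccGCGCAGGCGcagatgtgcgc
Ndufb4, ERR, chr16:37654405-37654434, minus strand: tcctgagcctgAAGGTCAgactcgagaggg
Ndufb2, ERR, chr6:39592373-39592402, plus strand: ggagcagcagtAAGGTCAgccaagagcacc
Ndufs3, ETS, chr2:90904730-90904759, minus strand: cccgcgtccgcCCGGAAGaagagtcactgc
Ndufs7, YY1, chr10:80249463-80249492, plus strand: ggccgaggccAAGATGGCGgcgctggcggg
Ndufa11, NRF1, chr17:56717692-56717721, plus strand: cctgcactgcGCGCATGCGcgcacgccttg

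NRF1 letters were in 8 of 32 complex I promoters (25%), against 15.6% of 9054 tested genes with a promoter in the table and 7.03% of all 27025 genes in it. YY1 letters were in 7 (21.9%, against 6.27%), ERR letters in 3 (9.38%, against 3.78%) and ETS letters in 4 (12.5%, against 20.4%). These shares were not particular to complex I. In 13 ATP synthase promoters they were 53.8% for NRF1, 23.1% for YY1, 30.8% for ERR and 38.5% for ETS. At least 1 motif was in 59.4% of complex I promoters and 38.4% of those of tested genes. For the other complexes it was 84.6% of 13 (ATP synthase), 100% of 3 (II), 60% of 5 (III) and 30% of 10 (IV). Within complex I, the untreated median log2 fold change was -0.54 for the 8 genes with NRF1 letters and -0.46 for the 24 without. It was -0.43 for the 7 genes with YY1 letters and -0.55 for the 25 without, -0.78 for the 3 with ERR letters and -0.48 for the 29 without, and -0.37 for the 4 with ETS letters and -0.54 for the 28 without. The 13 complex I genes with none of the 4 motifs had a median of -0.61. A match is a description of these letters only, and these differences between medians were not tested. Ndufb4 and Ndufa11, at opposite ends of the 35, both hold NRF1 letters, while Ndufv3 and Ndufv1 hold none of the 4 motifs.

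Among genes outside the 35, Ndufa4, once counted as a complex I subunit and since assigned to complex IV, had a log2 fold change of -0.45 and was chosen after its value was seen. Of 17 complex I assembly factors tested, 6 fell and the other 11 did not pass (median log2 fold change -0.12). That is 35.3% lower, close to the 28.7% of all nuclear genes tested. The assembly factor Tmem126b had 19.1, 22.1 and 24.8 CPM in KO and 52.4, 44.1 and 43.0 CPM in WT libraries (log2 fold change -1.08, SE 0.12), below any of the 35 genes, and Tmem186, which works with it in the same assembly complex, had a log2 fold change of -0.57.

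Of the complex I messengers of the mitochondrial genome, all features but mt-Nd6 were higher in untreated KO hearts. Scaled by nuclear counts, a setting chosen after the data were seen, the log2 fold change in untreated hearts was 2.03 for mt-Nd1, 2.00 for mt-Nd2, 1.78 for mt-Nd3 and 1.18 for the joint mt-Nd4l and mt-Nd4 feature. mt-Nd5 differed least, at 0.10 (SE 0.02). mt-Nd6, encoded on the other strand, had a log2 fold change of -1.35, and no source used here says whether its reads were counted by strand.

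Among the other respiratory complexes, complexes II and III and ATP synthase were placed much like complex I. All 4 genes of complex II fell (median log2 fold change -0.55). Of 9 nuclear genes of complex III, 8 fell (median -0.54), led by Uqcrq at -1.19 and Uqcr11 at -0.99. Of 15 genes of ATP synthase, 13 fell and 1 rose (median -0.41). The largest falls there were Atp5k at -0.87 and Atp5j at -0.83, and Atp5d rose, at 0.13. That call was lost with DESeq2, with all 12 libraries in 1 fit, and without the second KO, the first WT or the second WT library, at 0.086 to 0.124.

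Complex IV was split. Of its 13 nuclear genes 9 fell and 2 rose, with a median log2 fold change of -0.17. Cox7a1, the muscle form of its subunit, had 218, 237 and 231 CPM in KO and 737, 709 and 765 CPM in WT libraries (log2 fold change -1.69). Cox6a1 and Cox8a, forms found in most tissues, rose, with log2 fold changes of 1.27 and 1.21. No gene of complex I rose in this comparison.

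Of 11 regulators of respiratory genes, 3 fell and 2 rose, or 27.3% and 18.2%, where 28.7% and 29.1% of all nuclear genes did. The coactivator Ppargc1a had 311, 306 and 330 CPM in KO and 226, 221 and 212 CPM in WT libraries, a log2 fold change of 0.53 (SE 0.05). Its relative Pprc1 was at 0.92, while the third family member, Ppargc1b, had 20.01, 16.4 and 23.2 CPM in KO and 38.2, 37.4 and 37.8 CPM in WT libraries, a log2 fold change of -0.92 (SE 0.13). The related coactivators thus differed in direction in the same hearts.

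**Figure D3:**
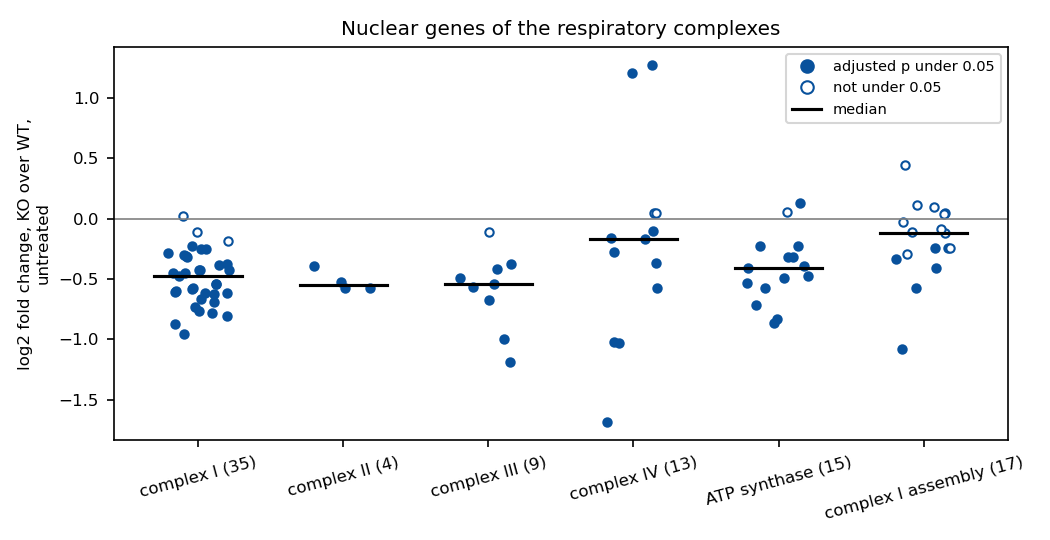
Log2 fold change of each nuclear gene of the respiratory complexes and of the complex I assembly factors, KO over WT, untreated; filled points passed an adjusted p under 0.05 and bars are medians. Complex I centres on -0.48 with none of its genes above 0.02, whereas complex IV spans -1.69 to 1.27.

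After CMC most of these genes were again lower in KO. Of the 35 genes, 30 fell and 1 rose in KO against WT libraries after CMC (26.8% and 27.2% of 12198 nuclear genes tested), and 4 did not pass. The median log2 fold change was -0.58, and the summed level was 6268 ± 28.1 CPM in KO and 8836 ± 55.5 CPM in WT libraries (SD, n = 3), a ratio of 0.709. The summed cardiomyocyte markers ran from 42274 to 43276 CPM in KO and from 75486 to 82450 CPM in WT libraries after CMC, a ratio of 0.544. Without the third WT library after CMC, 30 fell and 3 rose, with a median of -0.59, where 25.4% and 26.8% of all genes tested did, and the ratios of the summed levels were 0.712 and 0.559. Both CMC groups are libraries of their own, so these values share no library with the untreated comparison. The labels number both sets alike but do not say whether they come from the same hearts. The CMC comparison is therefore not known to be an independent repeat.

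Both tests called 28 genes lower, and the sign was the same for 32 of the 35. The Pearson correlation of the fold changes, after CMC and untreated, was 0.46 over the 35 genes. Without the third WT library after CMC the counts were 28 and 31 and the correlation was 0.30. Ndufs3 fell most after CMC, with 64.2, 55.7 and 58.4 CPM in KO libraries, against 123, 123 and 113 CPM in WT libraries (log2 fold change -1.02, SE 0.09, edgeR adjusted p = 1.78e-11). Ndufs1, Ndufv3 and Ndufb4 stayed among the deepest, at -0.87, -0.85 and -0.83, and at -0.86, -0.89 and -0.76 without that library.

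Ndufb6 and Ndufc2, which did not pass untreated, passed after CMC. Ndufc2 had 62.0, 71.1 and 64.9 CPM in KO and 88.5, 86.6 and 80.8 CPM in WT libraries (log2 fold change -0.38, SE 0.09, edgeR adjusted p = 0.000564). For Ndufb6 the log2 fold change was -0.28 (edgeR adjusted p = 0.0161). Ndufa11 again did not pass (log2 fold change -0.08, SE 0.10, edgeR adjusted p = 0.489), with overlapping groups, nor did it without the third WT library (log2 fold change -0.19, edgeR adjusted p = 0.0631).

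Against untreated libraries of the same genotype, CMC libraries differed for a minority of the 35 genes, though for a larger share of them than of all nuclear genes. In KO hearts 7 rose (20%) and 6 fell (17.1%) after CMC against untreated, where 6.77% of 11967 nuclear genes rose and 5.34% fell. In WT hearts 2 rose (5.71%) and 3 fell (8.57%), where 0.967% of 12099 rose and 1.26% fell. Without the third WT library after CMC the WT counts were 6 (17.1%) and 8 (22.9%), with 2.8% of all genes tested higher and 3.3% lower. The median change of the 35 genes was -0.04 in KO and -0.04 in WT. Over all genes, WT hearts had 117 higher and 153 lower calls after CMC, and 187 higher and 121 lower calls when no TMM factor was used.

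In KO hearts the rises after CMC were Ndufs5 (log2 fold change 0.57), Ndufs6 (0.40), Ndufb10 (0.30), Ndufb11 (0.28), Ndufv3 (0.27), Ndufa12 (0.26) and Ndufa10 (0.13). The falls were Ndufc1 (-0.44), Ndufs3 (-0.40), Ndufa13 (-0.28), Ndufs4 (-0.26), Ndufa9 (-0.20) and Ndufa3 (-0.20). In WT hearts Ndufv3 (0.24) and Ndufa10 (0.22) rose, and Ndufa1 (-0.51), Ndufb2 (-0.34) and Ndufa5 (-0.31) fell. Ndufv3 and Ndufa10 were thus called higher in both genotypes, though not in every fit. In WT, Ndufv3 lost its call with DESeq2 (adjusted p = 0.0833) and without any 1 library other than the third after CMC. Ndufa10 lost its WT call in some fits with 1 library left out, and its KO call with DESeq2 (adjusted p = 0.106). Without the third WT library after CMC, both passed in WT (0.29 and 0.25). The largest WT changes were then Ndufa1 (-0.68), Ndufa7 (0.44) and Ndufs6 (-0.37).

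The effect of the knockout differed between CMC and untreated libraries for 6 of the 35 genes, each time towards a higher KO level relative to WT after CMC, where 1.09% of 12786 nuclear genes were called in that direction and 1.49% in either. Over all genes the difference had 140 higher and 50 lower calls, or 89 and 82 when no TMM factor was used. Of the 35 genes, 5 were then called higher and 2 lower. Ndufs5 differed most: it had 185, 185 and 158 CPM in KO and 136, 122 and 200 CPM in WT libraries after CMC. Its log2 fold change of KO over WT was 0.20 (edgeR adjusted p = 0.112) after CMC and -0.43 untreated, and the difference was 0.64 (SE 0.13, edgeR adjusted p = 0.00162). The third WT library was the highest of all 6 after CMC, and without it the log2 fold change after CMC was 0.45, a rise that passed (edgeR adjusted p = 5.69e-06), and the difference was 0.88. The value after CMC also passed as a rise with no TMM factor (0.28), with no filter (0.23), with all 12 libraries in 1 fit (0.21) and without the third KO library (0.28).

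Ndufs6, a zinc-binding accessory subunit of the N module, had 135, 125 and 108 CPM in KO and 112, 103 and 154 CPM in WT libraries after CMC, against 92.3, 94.0 and 92.8 CPM in KO and 136, 142 and 139 CPM in WT libraries untreated. Its KO effect was -0.00 after CMC and -0.58 untreated, a difference of 0.58 (SE 0.12, edgeR adjusted p = 0.00405). Without the third WT library the value after CMC was 0.20, which passed as a rise (edgeR adjusted p = 0.0467). Its genotypes overlapped after CMC and did not overlap untreated.

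Ndufa12, an accessory subunit of the N module, was the 1 gene that rose in KO after CMC with all libraries in, with 261, 243 and 261 CPM in KO and 217, 203 and 255 CPM in WT libraries (log2 fold change 0.18, SE 0.07, edgeR adjusted p = 0.0369). Untreated it had 219, 211 and 206 CPM in KO and 252, 261 and 266 CPM in WT libraries (log2 fold change -0.29, SE 0.05), and the difference of the effects was 0.48 (SE 0.09). The rise after CMC did not pass with DESeq2 (adjusted p = 0.0978) or when any of 4 other CMC libraries was left out, with log2 fold changes of 0.12 to 0.17, and it was 0.29 without the third WT library.

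The remaining 3 were Ndufa1, Ndufb10 and Ndufa5. Ndufa1 had 126, 133 and 118 CPM in KO and 129, 125 and 178 CPM in WT libraries after CMC, and its difference was 0.55 (SE 0.11), or 0.73 without the third WT library. For Ndufb10 the values after CMC were 424, 421 and 417 CPM in KO and 479, 441 and 516 CPM in WT libraries, with a difference of 0.36 (SE 0.07). Ndufa5, with 251, 265 and 252 CPM in KO and 308, 289 and 332 CPM in WT libraries after CMC, was at the threshold (difference 0.27, SE 0.08, edgeR adjusted p = 0.0496).

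Leaving out the third WT library after CMC changed this list more than any other setting. All 6 genes still passed, Ndufa8 joined them at 0.35, and 4 genes passed in the opposite direction: Ndufa7 (-0.56), Ndufs4 (-0.45), Ndufb8 (-0.24) and Ndufv2 (-0.19). Of all genes, 3.23% then had a higher and 1.52% a lower call. These were named after their values were seen.

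**Figure D4:**
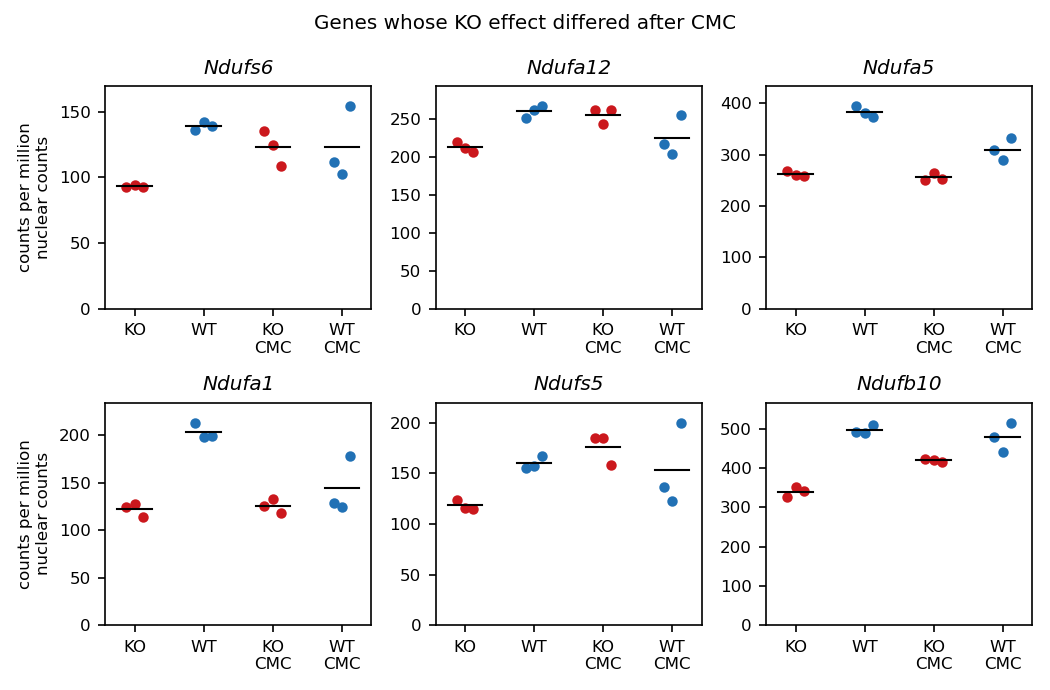
Level (counts per 1000000 nuclear counts) of the 6 genes whose KO effect differed between CMC and untreated libraries; points are libraries and lines are group means (n = 3). In the untreated pair KO lies below WT for every gene, and in the CMC pair the groups overlap for Ndufs6, Ndufa12, Ndufa1 and Ndufs5.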

How the data were processed

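RNA-seq of hearts was analysed from deposited tables of raw counts per gene, 1 for untreated and 1 for CMC libraries, with the columns that featureCounts writes per the file headers. Tools named, per the submitters' processing notes, are featureCounts 1.5.1, HISAT2 2.0.5, DESeq2 1.16.1 and SAMtools 1.5, with the mm10 build. No source used here says whether counting used strand. A table by the authors holds log2 fold changes and p-values of untreated hearts. GENCODE M21 (mm10) gave gene names and positions, and promoter sequences from RefSeq (GRCm38.p6).

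The 36 mitochondrial features were set aside and low genes were removed by filterByExpr. The quasi-likelihood test of edgeR 4.0.16 was run in R 4.3.3 with TMM factors over nuclear genes, with 6 libraries per comparison of 2 groups and all 12 for the difference of KO effects. Benjamini-Hochberg adjustment ran over all genes tested, and genes were called under 0.05 (5 comparisons). SE is the absolute log2 fold change over the square root of the F statistic. CPM are counts per 1000000 nuclear counts, with TMM factors. Each fit was tested on simulated data. The simulation changed a small share of genes, as many up as down, picked among well-counted genes, with the same spread for every gene. In the data, 29.1% of nuclear genes tested rose and 28.7% fell in untreated KO against WT. The recovery rates therefore hold for the simulated setting only. In it, log2 changes of 0.5 were recovered at 73% to 81% in comparisons of 2 groups. For the difference of KO effects 42% were recovered, so a gene not called there may still differ. Nuclear depth of 2683284 to 3187748 counts per library limits the precision of genes at low CPM.

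The 35 genes and all lists were chosen with earlier results of these data known. The rule for named genes took, per module, the 3 largest changes and the smallest among genes that passed untreated, those that did not pass, the core subunits, those whose KO effect differed, and from other lists the 2 largest changes and any called against the rest. Alternatives were other scalings (TMM over all genes, RLE, none), no filter, DESeq2 1.42.0, the replicate number as a block, all 12 libraries in 1 fit, and each library left out in turn. Correlations of same-numbered deviations ran from -0.110 to 0.0701 over the comparisons of 2 groups. For CMC against untreated in KO they were 0.0215, 0.0701 and 0.0304, against -0.0511 to 0.0214 between different numbers. Untreated replicates differed little beyond counting error, so these values cannot show whether the numbers pair the samples.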

Additional observations from a re-analysis of the deposited data

Results flagged for a closer look

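The effect of the knockout differed between CMC and untreated libraries for 6 of the 35 genes, by the test of the difference itself (edgeR, adjusted p under 0.05 over all genes). As log2 differences, the effect after CMC minus the effect untreated was 0.64 for Ndufs5, 0.58 for Ndufs6, 0.55 for Ndufa1, 0.48 for Ndufa12, 0.36 for Ndufb10 and 0.27 for Ndufa5. Ndufa5 passed only narrowly, and DESeq2 did not call Ndufs5 (adjusted p = 0.0696). In Ndufs5, Ndufs6, Ndufa1 and Ndufa12 the third WT library after CMC lay well above the other WT libraries after CMC, and without it the difference was 0.88 for Ndufs5, 0.78 for Ndufs6, 0.73 for Ndufa1 and 0.58 for Ndufa12.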

How the results depend on the processing

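KO against WT in untreated hearts gave 32 called genes of 35, and 29 to 32 under the other scalings, filter, test and fit, and 31 to 33 with 1 library left out. After CMC the count was 31, and 29 to 33 under all of these. The untreated median of -0.48 was -0.36 without a TMM factor, which moved the median of all genes by 0.12, and -0.51 to -0.46 with 1 library left out. Without the TMM factor Ndufa6, Ndufa7 and Ndufc1 lost their untreated calls, and DESeq2 also lost Ndufa7.

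CMC against untreated in WT was the least stable: 5 genes were called, against 2 with DESeq2, 10 with all 12 libraries in 1 fit, and 1 to 14 with 1 library left out. In KO the count was 13, and 10 to 13 with 1 library left out. The difference of KO effects had 6, and 5 to 11 with 1 library left out, 11 being without the third WT library after CMC; Ndufa5 lost its call in each fit that left out another library. The cause of these shifts was not tested.

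With the replicate number as a block the counts were 32 untreated and 31 after CMC for KO against WT, 5 in WT and 13 in KO for CMC, and 5 for the difference of KO effects, where Ndufa5 was lost (adjusted p = 0.0574).

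Signs turned for 3 genes. Untreated, Ndufa11 ran from -0.019 to 0.062 with 1 library left out, and Ndufc2 was at 0.011 without a TMM factor. After CMC, Ndufs6 was at 0.0039 with RLE factors, 0.079 without a TMM factor, 0.025 with no filter, 0.0076 with the replicate block and 0.0060 with all 12 libraries, and it ran from -0.11 to 0.20 with 1 library left out, where it passed as a rise without the third WT library (adjusted p = 0.0467). The untreated values of 73 named or listed genes were each counted once per alternative setting. Of these values, 928 kept their direction and their side of the threshold, 15 lost their call, 3 gained a call and 3 turned sign.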
